A study of Mus musculus with 12 samples.

Results

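The transcripts of 10 coagulation factor genes (F2, F3, F5, F7, F8, F9, F11, F12, F13a1 and F13b) were examined in mouse liver. They were the rows whose Ensembl identifier the GENCODE vM1 annotation of the mm9 genome pairs with these symbols. All 10 were among the 51609 gene rows of the table, and all 10 were among the 17652 genes that passed a filter on low counts. Of these, 7 (F2, F5, F7, F9, F11, F12 and F13b) were grouped as made mainly by hepatocytes. The other 3 (F3, F8 and F13a1) were grouped as made mainly by other cells of the liver and blood. Which cells made each transcript was not tested in these livers. The liver RNA came from 4 groups of 3 C57BL/6 mice, aged 5 to 7 weeks, from a colony in which males and females were both used. Wild-type mice were either left untreated on water or given 2% dextran sodium sulfate (DSS), an agent that injures the colon, in the drinking water for 6 days. Mice labelled RelaΔhepStat3Δhep were untreated or given DSS in the same way. In these mice Cre recombinase, driven by the albumin promoter and so active in hepatocytes, deletes floxed Rela and Stat3, while the mice called wild-type are littermates without Cre. The RNA was from whole liver, so it also held the transcripts of endothelial cells, macrophages, stellate cells and blood, in which the albumin promoter is not active. In such bulk RNA, fewer cells of a type and less RNA per cell cannot be told apart.

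Coagulation is a cascade of plasma proteases, most of them secreted by hepatocytes as inactive precursors. Tissue factor (F3) on cells outside the blood binds factor VII (F7) to start it, while factor XII (F12) and factor XI (F11) feed it through the contact pathway. Factor IX (F9) with its cofactor factor VIII (F8), and then factor V (F5), lead to prothrombin (F2), whose active form thrombin turns fibrinogen into fibrin. Factor XIII, with a catalytic A subunit (F13a1) and a carrier B subunit (F13b), cross-links that fibrin. Many plasma proteins of the hepatocyte change during an acute-phase response, fibrinogen among them, and Stat3 and the NF-kB subunit Rela are transcription factors of that response. The comparisons asked which of the factor transcripts differed with DSS in each genotype, with genotype at each treatment, and in their DSS response between genotypes.

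The libraries held between 65879529 and 82850098 estimated counts, and levels are given as CPM, the count per 1000000 of the library size after scaling by the trimmed mean of M-values. The scaling factors ran from 0.758 in the second wild-type DSS library to 1.12. That library had 23330 CPM of the acute-phase gene Saa2, against 10.1 and 698 in the other wild-type DSS libraries and 2.53 to 11.5 in the untreated ones. Rela was at 39.5 to 62.3 CPM in the 6 libraries labelled RelaΔhepStat3Δhep and at 39.8 to 55.5 CPM in the 6 wild-type ones, so the whole-gene count of Rela was not lower under that label. Stat3 was at 43.0 to 74.8 CPM in the libraries labelled RelaΔhepStat3Δhep and at 45.7 to 330 CPM in the wild-type ones. A count over a whole gene does not show whether single exons are missing. The sex-linked transcripts were not balanced between groups. All 3 libraries labelled RelaΔhepStat3Δhep after DSS had high Xist (903 to 1283 CPM) and summed CPM of 4 Y-linked genes of at most 0.12, whereas the untreated libraries of that label had at most 29.0 CPM of Xist and 175 to 215 CPM of the Y-linked genes. Sex-linked expression and DSS therefore cannot be told apart in that genotype, nor sex-linked expression and genotype after DSS. The third untreated wild-type library held both, with 1143 CPM of Xist and 30.1 CPM of the Y-linked genes. The hepatocyte markers identified the tissue, as Alb was at 62890 CPM or more in all 12 libraries.

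Per kilobase of exon, prothrombin was the most abundant factor transcript and F13a1 the least. The medians over the 12 libraries, in CPM per kb, were 374 for F2, 176 for F12, 131 for F5, 97.0 for F13b, 89.4 for F9, 54.5 for F11, 50.4 for F7, 7.27 for F8, 1.59 for F3 and 0.193 for F13a1. The 7 hepatocyte-made factors thus stood above the 3 others in every library. F2 did not overlap F12 in any of the 4 groups, and F7, F8, F3 and F13a1 did not overlap each other in any group. F13b and F9 overlapped in all 4 groups, so their order was within the spread between mice. F11 and F7 overlapped in the 2 wild-type groups. In liver labelled RelaΔhepStat3Δhep they did not overlap, with F11 below F7 in untreated mice (28.5 to 37.9 against 50.5 to 60.6 CPM per kb) and above it after DSS (58.2 to 71.8 against 41.0 to 57.1). Exon lengths were taken from vM1, while the annotation used for counting was another one, which the sources used here do not name, so differences in length between the annotations enter these levels.

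**Figure D1:**
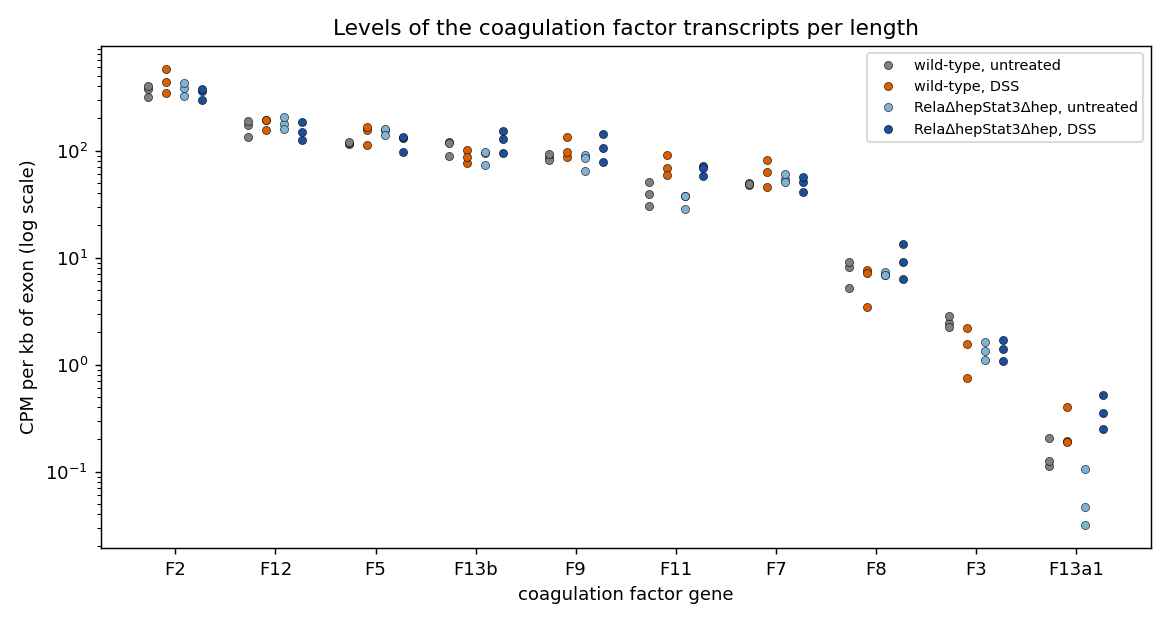
Level of each of the 10 factor transcripts in CPM per kb of exon on a log axis, with 1 point per library and the groups in colour. The hepatocyte-made factors F2 to F7 sit at or above 28.5, and F8, F3 and F13a1 lie apart at or below 13.4, with F13a1 between 0.0314 and 0.52.

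DSS was followed by more F11 and more F13a1 transcript in the liver labelled RelaΔhepStat3Δhep, and no other factor passed edgeR's test in any of the 5 comparisons. In that genotype F11, the precursor of the protease that activates factor IX, rose by 0.93 ± 0.21 on the log2 scale (SE, n = 3 per group), a 1.91-fold rise. F13a1, the catalytic subunit of the fibrin cross-linking enzyme, rose by 2.60 ± 0.50, a 6.08-fold rise from a low level. With 1 library left out, this F13a1 difference ran from 2.28 to 3.25. These 2 of 10 factors passed an adjusted p of 0.05 in edgeR's quasi-likelihood test (F11 0.0213 and F13a1 0.0108), where 7.02% of all tested genes passed. At an unadjusted p under 0.05 there were 3 of 10, against 24.1% of all genes. With sex-linked transcripts as a covariate neither passed (adjusted p 0.214 and 0.314), although the differences were larger, at 1.50 and 2.94, and with that covariate 4 of all 17652 genes passed (0.0227%), against 1240 without it. Without the second untreated library of that label neither passed as well, with adjusted p of 0.0724 and 0.0637. The differences there were 1.0 and 2.45, and 241 of 18277 genes passed (1.32%). F11 alone was lost without the third untreated (0.0866), the second DSS (0.0616) or the third DSS library (0.053). Its differences there were 0.81, 0.87 and 0.91, and 2.89%, 4.09% and 4.57% of all genes passed.

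In wild-type liver 0 of 10 factors passed the same edgeR test after DSS, where 0.685% of the genes passed, with 2 factors (F11 and F3) at an unadjusted p under 0.05, against 14.5% of all genes. DESeq2 called 1 of the 10, F11 (5.59% of all genes), and limma-voom 0 (1.19%). Between genotypes, edgeR called 0 of 10 in untreated mice (0.0623% of all genes), 0 of 10 after DSS (0.334%) and 0 of 10 for the difference between the genotypes' responses (0.408%). At an unadjusted p under 0.05 there were 2, 1 and 3 of the 10 in these comparisons, against 11.7%, 14.2% and 16.3% of all genes. DESeq2 and limma-voom also called 0 in these last 3 comparisons, where DESeq2 called 2.3%, 3.89% and 4.5% of all genes and limma-voom 0.538%, 0.164% and 0.368%. The factors did not all differ in the same direction, and they were not tested as a set. Among the 7 hepatocyte-made factors the median log2 fold change with DSS was 0.29 in wild-type liver (6 positive, 1 negative) and -0.13 in liver labelled RelaΔhepStat3Δhep (3 positive, 4 negative), beside medians of 0.02 and -0.01 over all tested genes. The wild-type median was 0.11 without the second DSS library, the one with the highest Saa2, and 0.18 in limma-voom and without scaling. Their median genotype difference was 0.06 untreated and -0.23 after DSS. For the difference between the responses it was -0.36, against -0.02 over all genes. With sex-linked transcripts as a covariate this median shrank, and the one for DSS in liver labelled RelaΔhepStat3Δhep turned positive. The values are given in the section on processing. The comparisons share libraries with each other, so these medians are not independent. Of 8 hepatocyte markers 1, Hnf4a, a transcription factor of hepatocyte genes, fell with DSS in liver labelled RelaΔhepStat3Δhep (-0.70, adjusted p 0.0325, and 0.017 to 0.115 with 1 library left out), and 7 of the 8 were negative, with a median of -0.29. Over all genes 7.02% passed in that comparison. Apoa2, an apolipoprotein, was also lower in every DSS library of that label than in the untreated ones (-0.48, adjusted p 0.197). Of all genes 31.8% did not overlap there, and 18.7% in the wild-type comparison. The one positive marker was Alb (0.17, adjusted p 0.761), which makes up most of the summed level of the 8, at 143000 to 156000 CPM untreated and 140000 to 183000 CPM after DSS there. In wild-type liver 6 of the 8 were negative with DSS, with a median of -0.20, and 0 passed in edgeR (1 at an unadjusted p under 0.05, Ass1 of the urea cycle, at -0.76 with groups that did not overlap), DESeq2 or limma-voom. The part of Hnf4a in the factor levels was not tested.

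**Figure D2:**
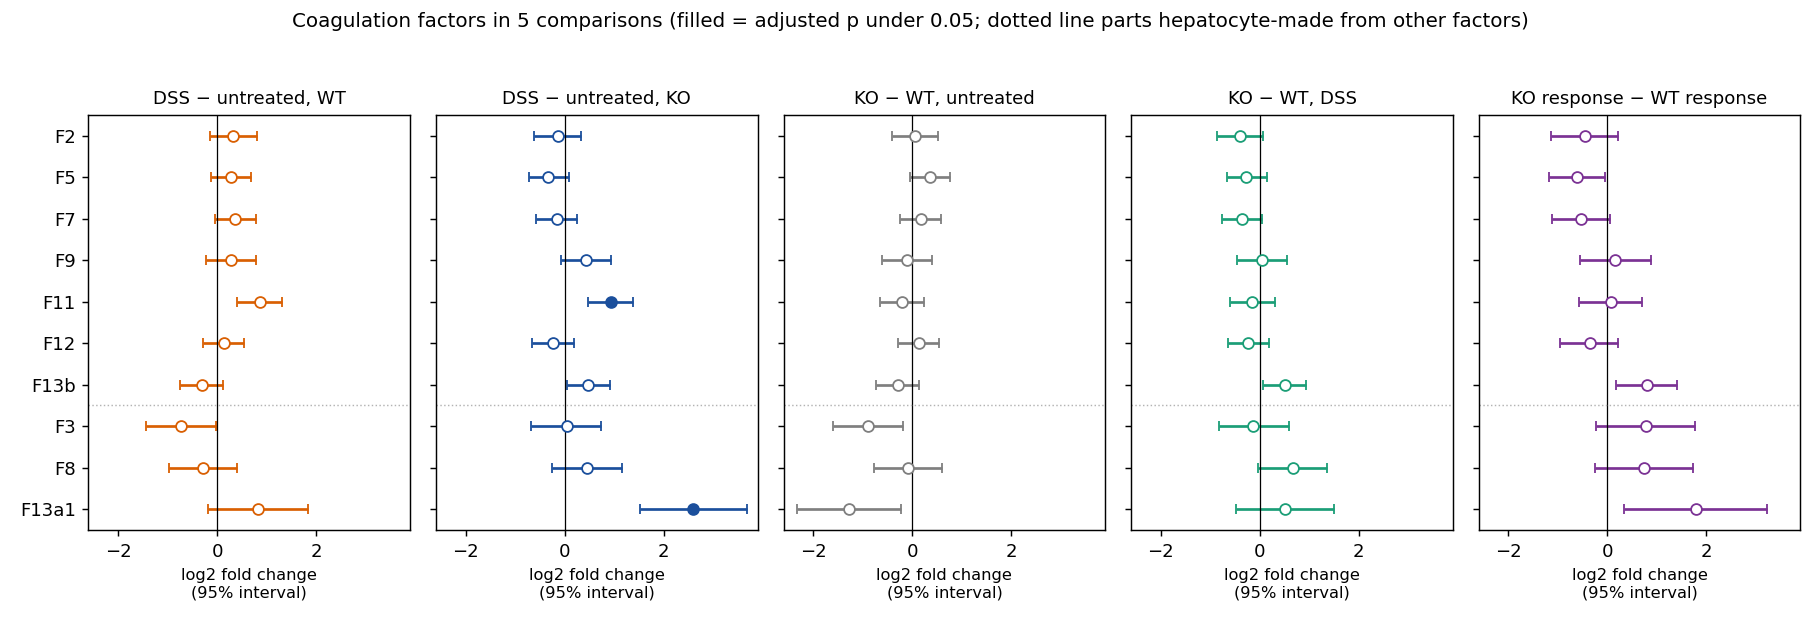
Log2 fold change of the 10 factors in the 5 comparisons, with bars for the 95% interval from the fit. Filled points, F11 at 0.93 and F13a1 at 2.60 with DSS in mice labelled RelaΔhepStat3Δhep (KO), had an adjusted p under 0.05, and all other points are open.

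F11 lies at chr8:46326524-46347385 on the minus strand (mm9, ENSMUSG00000031645). As it was the hepatocyte-made factor that passed the test, the 250 bases before its start site are shown, taken from RefSeq on build GRCm38.p6, which is not the build of the counts, at chr8:45262032-45262281 on the minus strand. The capitals mark the only match to any of the 5 patterns searched, a C/EBP pattern (TTGCNNAA, on either strand) at -17 to -10 from the start site. The window of F9 is shown beside it, at chrX:59999214-59999463 on the plus strand, because it was the only window of the 10 factors with a STAT pattern. Its capitals mark, from left to right, an NF-kB pattern, the STAT pattern and a C/EBP pattern.
F11: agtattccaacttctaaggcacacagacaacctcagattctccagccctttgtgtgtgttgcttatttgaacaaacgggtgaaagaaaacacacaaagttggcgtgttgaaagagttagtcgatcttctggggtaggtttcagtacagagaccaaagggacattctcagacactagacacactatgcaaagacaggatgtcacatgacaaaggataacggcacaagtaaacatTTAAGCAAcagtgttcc
F9: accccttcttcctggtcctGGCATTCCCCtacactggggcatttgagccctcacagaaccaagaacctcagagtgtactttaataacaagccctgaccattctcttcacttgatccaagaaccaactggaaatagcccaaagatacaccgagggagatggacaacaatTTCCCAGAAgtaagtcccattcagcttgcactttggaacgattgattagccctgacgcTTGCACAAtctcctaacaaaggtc
All 10 factors had a window in the RefSeq table, and F13a1 had more than 1. The STAT pattern (TTCNNNGAA) was found for 1 of the 10 factors, at -82 to -74 of F9, and in 7.02% of all 32851 windows of this length. The NF-kB pattern, of 3 G, 5 free bases and 2 C on either strand, was found for 4 of 10 factors (F3, F5, F8 and F9). It was in 45.8% of all windows, so it is a loose pattern. The C/EBP pattern was found for 2 of 10 factors (F9 and F11) and in 9.56% of all windows. An HNF4-like (CAAAGTCCA) and an HNF1-like pattern were found for 0 of 10 factors, and in 0.384% and 0.0609% of all windows. A match describes the letters of the window and is not evidence of binding.

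F11 was at 114, 88.0 and 68.3 CPM in the 3 untreated wild-type libraries and at 156, 204 and 132 CPM in the 3 wild-type DSS libraries. In liver labelled RelaΔhepStat3Δhep it was at 85.0, 84.6 and 63.9 CPM untreated and at 131, 161 and 153 CPM after DSS. Every DSS library of either genotype was thus above every untreated library of either genotype. Groups that do not overlap were found for 18.7% of all tested genes in the wild-type comparison and for 31.8% in the other genotype. The wild-type difference was 0.86 ± 0.21 on the log2 scale (1.82-fold, n = 3 per group) with an edgeR adjusted p of 0.0815, and DESeq2 gave 0.87 with 0.00332. The DSS differences of the genotypes were 0.07 apart, with a 95% interval from -0.57 to 0.70. F11 was the factor with the highest log2 fold change in wild-type liver, where the first DSS library had 10.1 CPM of Saa2 and 156 CPM of F11. Set against other factors of the same library, the groups did not overlap in every ratio. The ratio of F11 to F12 in CPM was 0.239 to 0.338 in untreated wild-type liver and 0.352 to 0.541 after DSS, and it was 0.205 to 0.242 and 0.442 to 0.535 in liver labelled RelaΔhepStat3Δhep. The ratio of F11 to F9 was higher in every wild-type DSS library than in the untreated ones, but in the other genotype the first DSS library, at 0.333, was below the untreated range of 0.339 to 0.363. The ratio of F11 to F2 was higher after DSS in every library labelled RelaΔhepStat3Δhep, but in wild-type liver it overlapped, with 0.0655 in the third DSS and 0.0666 in the first untreated library. In CPM per kb of exon, F11 made up 3.40% to 5.25% of the sum of the 7 hepatocyte-made factors in untreated livers. It made up 5.35% to 7.37% in DSS livers.

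F12, the contact factor that activates factor XI, lies at chr13:55519319-55528154 (minus strand, ENSMUSG00000021492). It was at 338, 368 and 262 CPM in untreated and 304, 378 and 375 CPM in DSS-treated wild-type liver. In liver labelled RelaΔhepStat3Δhep it was at 351, 400 and 311 CPM untreated and 244, 364 and 294 CPM after DSS. All 4 groups overlapped, and the log2 differences with DSS were 0.13 ± 0.19 and -0.24 ± 0.19.

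F9, the vitamin K-dependent protease that factor XI activates, lies at chrX:57252641-57283936 (plus strand, ENSMUSG00000031138). It was at 238, 224 and 254 CPM in untreated and 237, 369 and 263 CPM in DSS-treated wild-type liver. In the other genotype it was at 251, 235 and 176 CPM untreated and 392, 212 and 290 CPM after DSS. The groups overlapped in all 4 comparisons of groups, with log2 differences after DSS of 0.28 ± 0.23 and 0.44 ± 0.23. F9 is X-linked, and the DSS libraries labelled RelaΔhepStat3Δhep are the ones with high Xist.

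F7, the protease that tissue factor binds, lies at chr8:13026034-13035809 (plus strand, ENSMUSG00000031443). It was at 89.1, 92.9 and 91.3 CPM in untreated wild-type liver and at 84.6, 152 and 117 CPM after DSS. In the other genotype it was at 101, 113 and 93.8 CPM untreated and 76.2, 93.6 and 106 CPM after DSS. The untreated wild-type mice lay close together and the DSS-treated ones spread on both sides of them. Untreated, every library labelled RelaΔhepStat3Δhep was above every wild-type one, by 0.17 ± 0.19 on the log2 scale (adjusted p 0.775), and 20.2% of all genes did not overlap in that comparison.

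F2, prothrombin, lies at chr2:91465477-91476571 (minus strand, ENSMUSG00000027249). It was at 1713, 1829 and 1458 CPM in untreated wild-type liver and at 1587, 2674 and 2016 CPM after DSS. The libraries labelled RelaΔhepStat3Δhep had 1775, 1967 and 1474 CPM untreated and 1362, 1669 and 1724 CPM after DSS. The groups overlapped, with log2 differences after DSS of 0.33 ± 0.22 and -0.13 ± 0.22. In CPM per kb of exon, F2 made up 32.5% to 45.8% of the sum of the 7 hepatocyte-made factors. The smallest share was in the first DSS library labelled RelaΔhepStat3Δhep and the largest in the second wild-type DSS library.

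F5, the cofactor that speeds the activation of prothrombin, lies at chr1:166081969-166150408 (plus strand, ENSMUSG00000026579). It was at 862, 874 and 899 CPM in untreated wild-type liver and at 1156, 842 and 1222 CPM after DSS. Liver labelled RelaΔhepStat3Δhep had 1146, 1173 and 1046 CPM untreated and 726, 965 and 989 CPM after DSS. In that genotype every DSS library was below every untreated one, by 0.33 ± 0.19 on the log2 scale (-0.33, adjusted p 0.309). There 31.8% of all genes did not overlap. Untreated, every library of that label was above every wild-type library, by 0.35 ± 0.19 (adjusted p 0.485), and 20.2% of all genes did not overlap. The difference between the responses was -0.62 ± 0.26 with a 95% interval from -1.19 to -0.05, and its adjusted p was 0.273. Exons of F5 overlap those of Gm16548 on the opposite strand, and whether the counting used strand is not given in the sources used here.

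F13b, the carrier subunit of factor XIII, lies at chr1:141398284-141420333 (plus strand, ENSMUSG00000026368) and was the hepatocyte-made factor whose DSS libraries lay on opposite sides of the untreated mean in the 2 genotypes. It was at 306, 227 and 296 CPM in untreated wild-type liver and at 255, 193 and 220 CPM after DSS. With the label RelaΔhepStat3Δhep it was at 243, 248 and 186 CPM untreated and 384, 240 and 322 CPM after DSS. All 3 wild-type DSS libraries were below the mean of their untreated group, and all 3 DSS libraries of the other genotype were above theirs, although the groups overlapped in both genotypes. The log2 differences were -0.31 ± 0.20 and 0.48 ± 0.20. The difference between them was 0.79 ± 0.28 (95% interval 0.18 to 1.41, unadjusted p 0.0158), and the adjusted p was 0.208 in edgeR. After DSS the genotypes differed by 0.50 ± 0.20 (adjusted p 0.296).

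**Figure D3:**
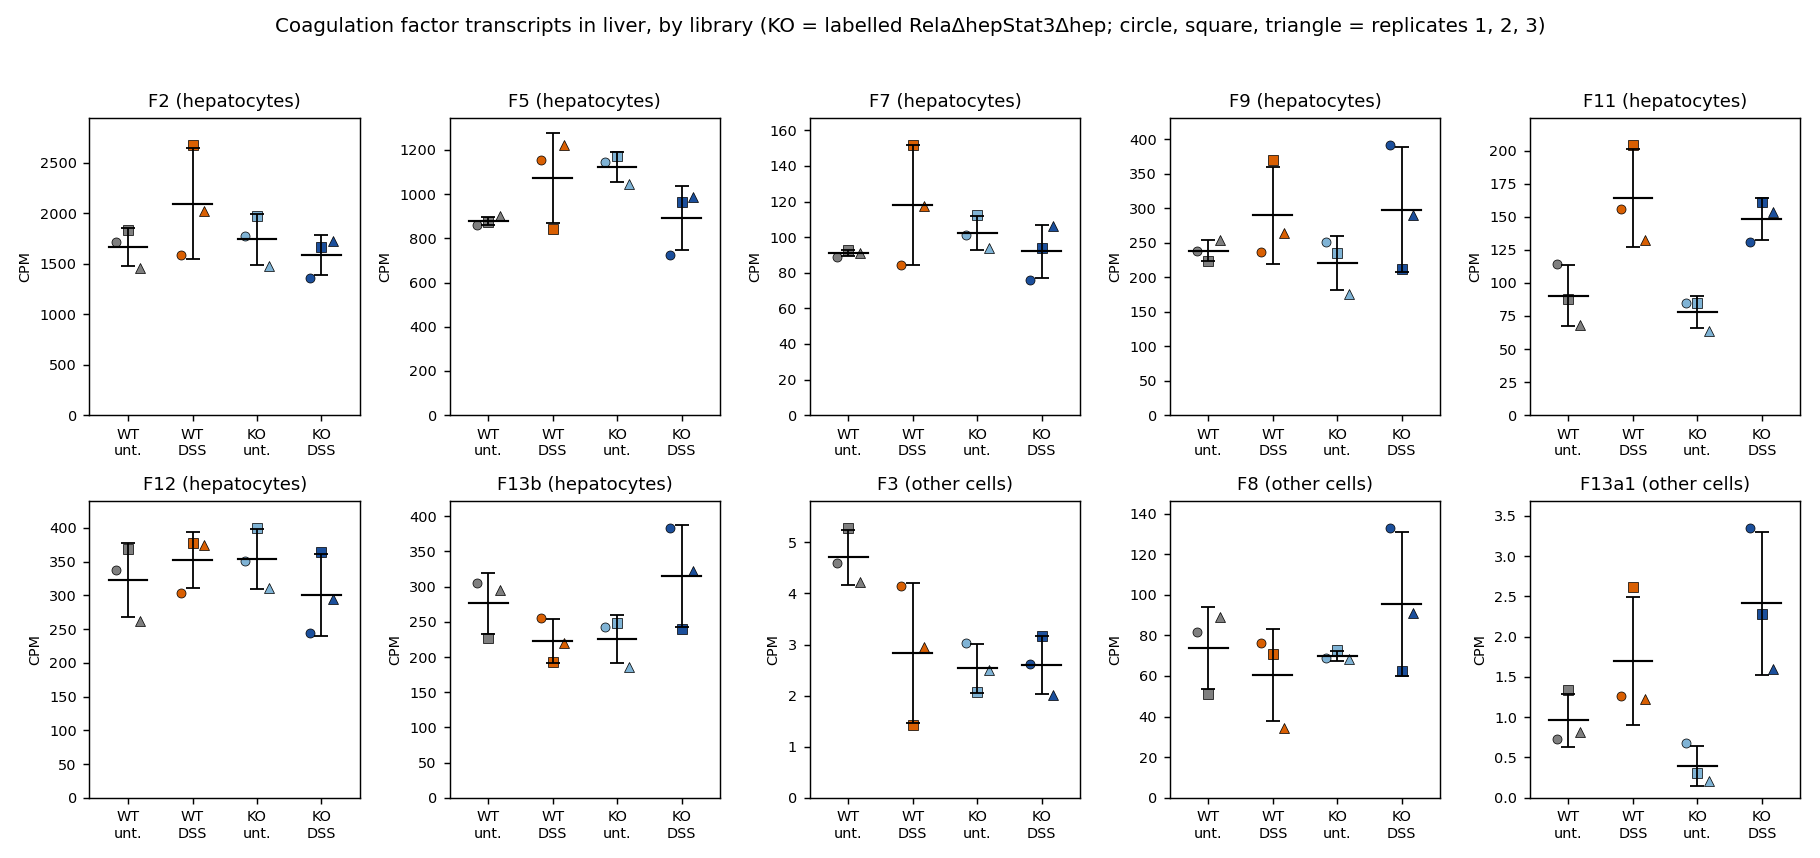
CPM of each factor in the 12 libraries, with the mean (line) and SD (bar) of each group of 3 and y axes that start at 0. F11 separates DSS from untreated libraries in both genotypes. F13a1 has its highest group mean after DSS in mice labelled RelaΔhepStat3Δhep (1.60 to 3.35 CPM), overlapping the wild-type DSS libraries (1.23 to 2.61 CPM). F13b lies below its untreated mean in wild-type and above it in the other DSS libraries.

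The hepatocyte-made factors varied in part along the same libraries. The second wild-type DSS library, with the highest acute-phase level, was the highest of all 12 for F2, F7 and F11. The first DSS library labelled RelaΔhepStat3Δhep was the lowest of all for F2, F5, F7 and F12 and the highest for F9, F13b, F8 and F13a1. The third untreated library of that label was the lowest for F9, F11, F13b and F13a1. Across the 12 libraries the log2 CPM of F2 and F7 had a Pearson r of 0.92, and of 0.91 after the group means were removed. F13b had r of -0.55 with F2, -0.58 with F7 and -0.68 with F12, and 0.70 with F8. These values describe libraries that share their depth and scaling, and carry no test. The ratio of F2 to F13b, which does not depend on scaling, ran from 3.55 in the first DSS library labelled RelaΔhepStat3Δhep to 13.9 in the second wild-type DSS library.

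F13a1 lies at chr13:36959047-37142113 (minus strand, ENSMUSG00000039109) and is made by megakaryocytes and by cells of the monocyte and macrophage lineage. It was at 0.723, 1.34 and 0.815 CPM in untreated wild-type liver and at 1.26, 2.61 and 1.23 CPM after DSS. Liver labelled RelaΔhepStat3Δhep had 0.678, 0.304 and 0.202 CPM untreated and 3.35, 2.29 and 1.60 CPM after DSS. In that genotype every DSS library was above every untreated library, and 31.8% of all genes did not overlap there. These levels rest on 15 to 98 estimated counts in untreated and 83 to 235 in DSS libraries. The wild-type difference was 0.82 ± 0.47 on the log2 scale (adjusted p 0.454), with overlapping groups. Untreated, the libraries labelled RelaΔhepStat3Δhep were all below the wild-type ones, by 1.28 (-1.28 ± 0.49, adjusted p 0.35), and 20.2% of all genes did not overlap. The difference between the responses was 1.78 ± 0.67 (95% interval 0.34 to 3.23, adjusted p 0.223). With 1 library left out, the wild-type DSS difference of F13a1 ran from 0.37 to 1.14. The difference between untreated genotypes then ran from -1.92 to -0.96, and the difference between the responses from 1.47 to 2.43.

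Macrophage and monocyte markers moved in the same comparison as F13a1. Of 9 listed markers 8 were tested, and in liver labelled RelaΔhepStat3Δhep 6 of these rose with DSS, among them Clec4f of Kupffer cells (1.07, adjusted p 0.0154), Lyz2 (1.51, 0.0128), Marco (2.49, 0.0407) and Cd68 (0.89, 0.0432). All 8 were positive and higher in every DSS library than in the untreated ones, as 31.8% of all genes did not overlap there. Over all genes edgeR called 7.02% in this comparison. DESeq2 called all 8 (14.4% of all genes) and limma-voom 6 (10.2%). Without the second or the third untreated library of that label none of the 6 that edgeR called passed. Their adjusted p was up to 0.168 over the 12 libraries left out in turn. The summed level of the 8 was 334 to 375 CPM untreated and 691 to 1160 CPM after DSS in that genotype. It was 274 to 546 and 422 to 917 CPM in wild-type liver, where 0 of 8 passed in edgeR (5 at an unadjusted p under 0.05) and 0 in DESeq2 and limma-voom. The 4 tested megakaryocyte and platelet markers summed to 4.37 to 5.56 CPM untreated and 4.51 to 5.75 CPM after DSS in the liver labelled RelaΔhepStat3Δhep, with Pf4 at most 0.678 CPM, and 0 of 4 passed in edgeR (0 at an unadjusted p under 0.05), DESeq2 or limma-voom. Of these 3 were positive and 1 negative, Gp1ba, which was lower in every DSS library there (-0.83, edgeR unadjusted p 0.0513). All 4 tested neutrophil markers were higher in every DSS library of that label than in the untreated ones, with a summed level of 1.82 to 2.26 CPM untreated and 10.4 to 27.3 CPM after DSS. In edgeR 1 of the 4 passed, Csf3r (1.58, adjusted p 0.0152), while S100a8 (4.68, 0.0792), S100a9 (4.60, 0.0638) and Mmp8 (4.92, 0.084) did not. DESeq2 called all 4 and limma-voom 1. In wild-type liver their sum was 3.66 to 5.0 CPM untreated and 4.35 to 88.3 CPM after DSS. There edgeR called 0 of 4 (4 at an unadjusted p under 0.05, against 14.5% of all genes), DESeq2 3 (5.59% of all genes) and limma-voom 0. The part of these cells in the F13a1 rise was not tested.

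**Figure D4:**
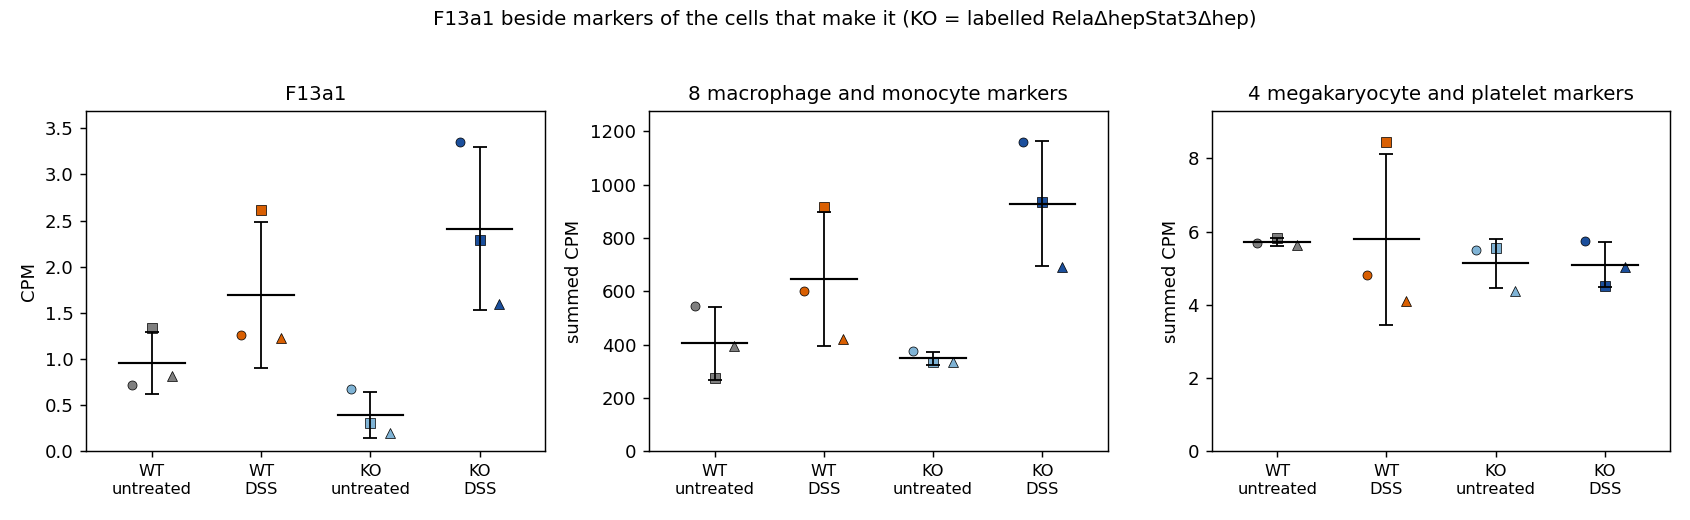
CPM of F13a1 beside the summed CPM of 8 macrophage and monocyte markers and of 4 megakaryocyte and platelet markers, per library, with the mean and SD of each group of 3. F13a1 and the macrophage markers are both higher after DSS in mice labelled RelaΔhepStat3Δhep (KO), at 1.60 to 3.35 and 691 to 1160 CPM. The sum of the platelet markers stays between 4.37 and 5.75 CPM in that genotype.

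F8, the cofactor of factor IX, lies at chrX:72418054-72627954 (minus strand, ENSMUSG00000031196) and is made by sinusoidal endothelial cells. It was at 81.7, 51.0 and 89.2 CPM in untreated wild-type liver and at 76.2, 71.1 and 34.4 CPM after DSS. Liver labelled RelaΔhepStat3Δhep had 68.7, 72.9 and 68.3 CPM untreated and 133, 62.4 and 90.8 CPM after DSS. All groups overlapped, and the log2 differences with DSS were -0.29 ± 0.32 and 0.45 ± 0.32. Of the 7 tested sinusoidal endothelial markers 0 passed in edgeR with DSS in either genotype (3 in wild-type liver and 2 in the other genotype at an unadjusted p under 0.05), while DESeq2 called 2 and 2 and limma-voom 3 and 1. Over all genes DESeq2 called 5.59% and 14.4% in these comparisons, and limma-voom 1.19% and 10.2%. In wild-type liver 6 of the markers were negative and 1 positive (median -0.44). There 3 were lower in every DSS library than in the untreated ones (18.7% of all genes did not overlap), Oit3 (-0.65), Gpr182 (-0.57) and Kdr (-0.79). In the other genotype 4 were positive and 3 negative (median 0.01). Without overlap (31.8% of all genes), Clec4g was higher there (0.97) and Gpr182 lower (-0.49). The summed CPM of the 7 markers was 403 to 534 after DSS against 405 to 473 untreated in liver labelled RelaΔhepStat3Δhep, and 238 to 536 against 426 to 492 in wild-type liver. The wild-type DSS library with the lowest F8, the third, also had the lowest summed endothelial markers (238 CPM). F8 is X-linked as well.

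F3, tissue factor, lies at chr3:121426455-121437970 (plus strand, ENSMUSG00000028128) and is carried by cells that include perivascular and other stromal cells. It was at 4.60, 5.29 and 4.22 CPM in untreated wild-type liver and at 4.15, 1.42 and 2.94 CPM after DSS. Liver labelled RelaΔhepStat3Δhep had 3.03, 2.07 and 2.50 CPM untreated and 2.61, 3.16 and 2.02 CPM after DSS. The untreated wild-type libraries were therefore the highest, and every library of each other group was below them. The differences from that group were -0.73 ± 0.32 with DSS (unadjusted p 0.0435, adjusted 0.325) and -0.89 ± 0.33 with genotype (0.017, adjusted 0.332). Both comparisons share the untreated wild-type mice. Of all genes 18.7% did not overlap in the comparison with DSS and 20.2% in that with genotype. With 1 library left out, the F3 differences ran from -1.11 to -0.41 with DSS and from -1.05 to -0.77 with genotype. With DSS in the other genotype the difference was 0.04 ± 0.33. The 7 stellate and fibroblast markers summed to 416 to 538 CPM in untreated wild-type liver, 369 to 456 CPM after DSS and 370 to 431 CPM in untreated liver labelled RelaΔhepStat3Δhep. After DSS the sum in that genotype was 453 to 559 CPM, above all 3 of its untreated libraries, while F3 overlapped there. The 7 markers did not move together. In the comparison of wild-type DSS with untreated liver 5 were negative and 2 positive, from -1.04 (Col3a1) to 0.22 (Dcn), and between untreated genotypes 5 were negative and 2 positive, from -1.49 (Col3a1) to 0.19 (Reln), with 0 of 7 past edgeR's test in each (2 and 3 at an unadjusted p under 0.05). DESeq2 called 1 in each, Col3a1, and limma-voom 0 and 1. Over all genes DESeq2 called 5.59% and 2.3% in these comparisons, and limma-voom 1.19% and 0.538%. With DSS in liver labelled RelaΔhepStat3Δhep 5 of the 7 markers were positive and 2 negative. There edgeR called 1, Des (1.98, adjusted p 0.0179), and 7.02% of all genes passed. Des was at 8.59, 7.10 and 28.2 CPM in the 3 DSS libraries, and without the third of them its difference was 1.08 (2.11-fold in place of 3.94-fold, adjusted p 0.0143). Without any one of the untreated libraries of that label Des did not pass (adjusted p 0.0572 to 0.0748). The part of such cells in F3 was not tested.

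The rest of the coagulation system was read from a list of 38 other genes, of which 33 had a row and 31 were tested. Klkb1, Vkorc1, F10, Proz and Serpinc1 were not analysed here, and F2rl1 and F2rl3 did not pass the filter. In wild-type liver after DSS 0 of 31 passed in edgeR, with 17 at an unadjusted p under 0.05 (14.5% of all genes), a median log2 fold change of 0.63 and 25 positive. The median of the 10 factors was 0.28. Both medians include the second wild-type DSS library, the one with the highest Saa2, and values without it are not given here. In this comparison DESeq2 called 8 of the 29 it tested, against 5.59% of all genes, and limma-voom called 0. Among the 8 were the 3 fibrinogen chains, Kng2 and the plasmin precursor Plg. In liver labelled RelaΔhepStat3Δhep 1 of 31 passed, where 7.02% of all tested genes passed. It was Procr, the endothelial protein C receptor, which was at 0.970, 0.745 and 1.22 CPM untreated and 3.08, 2.81 and 1.79 CPM after DSS (1.39 ± 0.38, adjusted p 0.0444). Procr passed in 4 of the 12 fits that left out 1 library, with adjusted p from 0.025 to 0.164. The median there was 0.08, with 17 positive. DESeq2 called 4 of 29 in this genotype (14.4% of all genes) and limma-voom 2 of 31 (10.2%), Procr in both. Between genotypes 0 of 31 passed in edgeR, untreated (3 under an unadjusted p of 0.05, against 11.7% of all genes), after DSS (19 against 14.2%, median -0.50) and for the difference between the responses (13 against 16.3%, median -0.56). DESeq2 called 0, 7 and 3 of 29 in these comparisons, against 2.3%, 3.89% and 4.5% of all genes, and limma-voom 0 in each.

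The fibrinogen chains, the substrate of thrombin, had the highest median of the coagulation lists in wild-type liver after DSS, at 1.76, below that of the 6 tested acute-phase genes (2.82). All 3 chains were highest in the second wild-type DSS library. The acute-phase genes summed to 5150, 100000 and 19900 CPM in the 3 wild-type DSS libraries. Both medians include the second of these libraries, and values without it are not given here. Fga was at 3687, 4787 and 3726 CPM untreated and 6554, 24600 and 14310 CPM after DSS in wild-type liver. In liver labelled RelaΔhepStat3Δhep it was at 4303, 3073 and 3723 CPM untreated and 3027, 3514 and 5194 CPM after DSS. The wild-type groups did not overlap and the others did, with differences of 1.90 ± 0.40 (adjusted p 0.0514) and 0.08. Fgb and Fgg were at 1.69 and 1.76 in wild-type liver, adjusted p 0.0673 and 0.0792, and DESeq2 called all 3 chains. For comparison, the highest log2 fold change of a hepatocyte-made factor in wild-type liver was that of F11, at 0.86. The contact system protein kininogen (Kng1 and Kng2) was higher in every wild-type DSS library than in the untreated ones (18.7% of all genes did not overlap). The differences were 0.63 and 0.68 with adjusted p of 0.237 and 0.161. The groups of F12, of the same pathway, overlapped.

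Among the inhibitors, the highest difference came from 1 library. A2m, a broad protease inhibitor, was at 451 CPM in the second wild-type DSS library and at no more than 0.725 CPM in the other 11. This difference, 8.80 on the log2 scale, did not pass (adjusted p 0.196). Serpina5 was at no more than 1.79 CPM in any library. Gas6, a vitamin K-dependent ligand, was at 185 and 85.7 CPM in wild-type DSS libraries 2 and 3 and at 18.6 to 46.0 CPM in all others. The plasminogen activator receptor Plaur and the activator Plat were higher in every DSS library than in any untreated library of the label RelaΔhepStat3Δhep. The differences were 1.23 and 1.13 with adjusted p of 0.194 and 0.152, and 31.8% of all genes did not overlap there. In untreated mice Thbd, thrombomodulin, differed by -0.58 between genotypes (adjusted p 0.756) and the protease receptor F2rl2 by 0.85 (0.611).

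**Figure D5:**
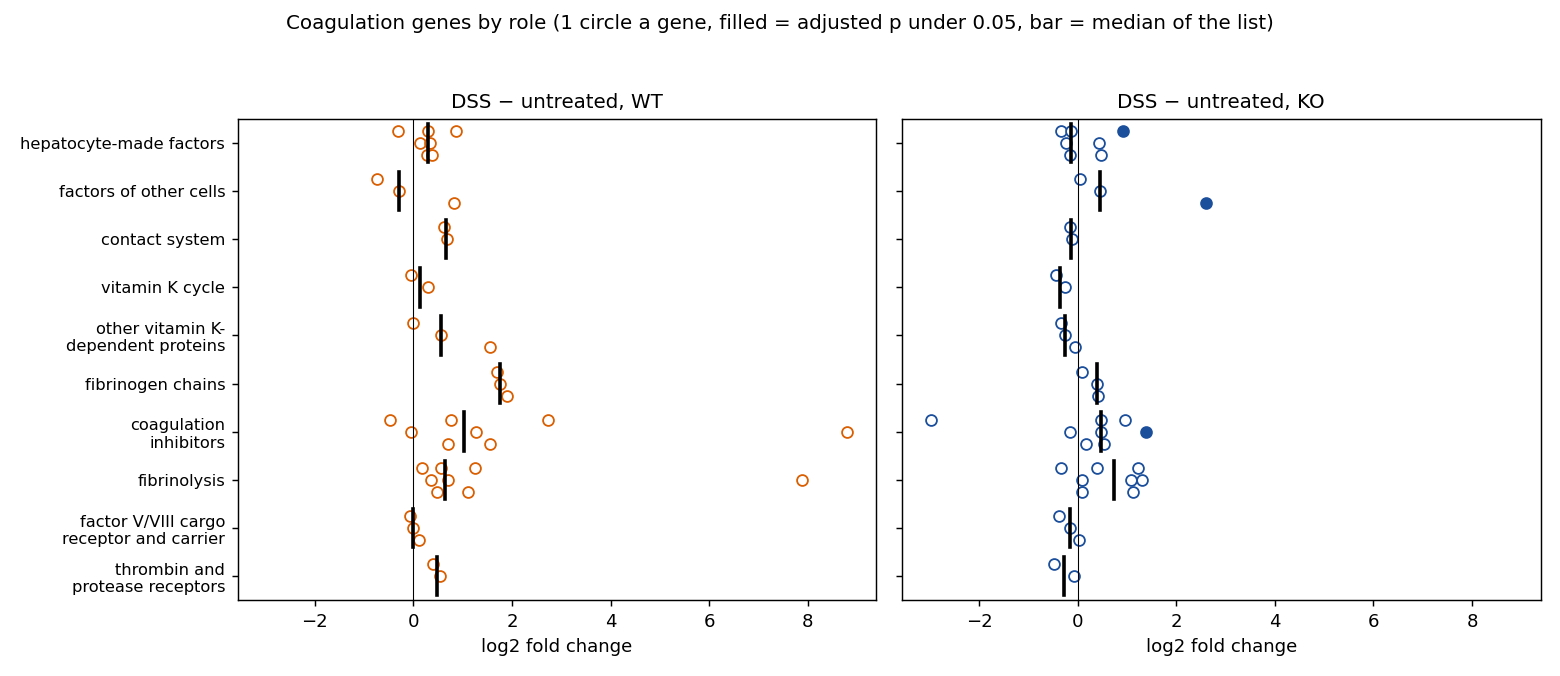
Log2 fold change with DSS of each tested gene of the coagulation lists in wild-type (WT) and RelaΔhepStat3Δhep (KO) liver, with a bar at the median of each list and filled circles for an adjusted p under 0.05. The fibrinogen chains sit at 1.69 to 1.90 in wild-type liver, where each was highest in the second DSS library. Their values without that library are not given. The hepatocyte-made factors have a median of 0.29 (0.11 without the second DSS library), and the filled circles in KO liver are F11, F13a1 and Procr.

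The genes most alike to each factor were found among 11007 named genes with a mean of at least 1 CPM, by Pearson r of log2 CPM over the 12 libraries. For F2 they were Dad1 (0.971), Vtn (0.954) and Gc (0.949), of which Vtn and Gc encode plasma proteins secreted by hepatocytes. For F7 they were Dap, Slc30a1 and Cadm4 (0.931 to 0.942), and for F12 Ncln, Yipf3 and Cd99l2 (0.941 to 0.961). F5 was nearest to Smad4, Phlpp1 and Ctage5 (0.921 to 0.943), and F9 to Spcs1, Gm14166 and Hbp1 (0.933 to 0.936). F13b was nearest to 2700060E02Rik (0.985), Hibch (0.968) and Top2b (0.962). F11 was nearest to Rit1, Fbxo6 and Chmp4b (0.940 to 0.948), and these fell to between 0.694 and 0.765 after group means were removed. Of the factors of other cells, F13a1 was nearest to Pde7b (0.975), Ensa (0.945) and Pla2g12b (0.941), which became 0.910, 0.732 and 0.811 after group means were removed, F8 to Ttll7, Kit and 4930430F08Rik (0.906 to 0.932), and F3 to Wdhd1 (0.897) and Clec2h (0.894). These are the highest of 11007 values for each factor over 12 libraries that share depth and scaling, and are given as a description with no test.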

How the data were processed

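Total liver RNA, depleted of rRNA, was sequenced as paired-end reads. Per the study's methods and the submitters' processing notes, the authors trimmed reads with fastp, aligned them to mm9 with HISAT2, and made a gene table with StringTie, whose estimated counts were deposited as whole numbers, not normalized. The study's own tests used DESeq2. These estimated counts derive from coverage and are not numbers of fragments. Strand and the annotation counted are not given in the sources used here. Names came from GENCODE vM1 (28677 of 51609 rows named, 22932 not).

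In R 4.3.3, counts were filtered (filterByExpr, 17652 genes), scaled by TMM and tested with edgeR 4.0.16 (robust quasi-likelihood F test, 1 model of the 4 groups, Benjamini-Hochberg adjustment over all tested genes, threshold 0.05). Fold changes are log2 with SE from the F statistic. Correlations used log2(CPM + 0.5). Alternatives were DESeq2 1.42.0, limma-voom 3.58.1 with quality weights, other size factors, testing without a filter or only genes with 10 counts or more throughout, fits of just the compared groups, the replicate block, a sex covariate (Xist over 100 CPM), a minimum log2 fold change of 1, no scaling and leaving out each library. Steps were tested on simulated data and no duplicate libraries were found.

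Named were the 10 factors, other coagulation genes past the threshold or among the 5 largest changes of a comparison, the 3 genes most alike to each factor, and markers or context genes beside a result. Members, lists and patterns were chosen with earlier results of these data known. Fgb, Plg and kininogen were named after their values were seen. Some genes that this rule names are not reported here.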

Additional observations from a re-analysis of the deposited data

Results flagged for a closer look

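F13b, the carrier subunit of factor XIII, had a difference between the genotypes' DSS responses of 0.79 on the log2 scale. It was singled out because all 3 wild-type DSS libraries lay below the mean of their untreated group and all 3 DSS libraries labelled RelaΔhepStat3Δhep lay above theirs. The difference was tested in edgeR and had an adjusted p of 0.208, so it did not pass. It kept its sign without each library in turn, from 0.62 (without the first DSS library labelled RelaΔhepStat3Δhep) to 0.96, with adjusted p from 0.128 to 0.391, and was 0.59 with sex-linked transcripts as a covariate (adjusted p 0.83).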

How the results depend on the processing

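The calls were set against 9 other settings and against leaving out each of the 12 libraries. In wild-type liver after DSS the count of factors called was 0, and 1 (F11) in DESeq2. In liver labelled RelaΔhepStat3Δhep the count of 2 became 0 with sex-linked transcripts as a covariate (where the calls over all genes went from 1240 to 4), 1 (F13a1) with an added log2 fold change of at least 1, and 0 to 2 when libraries were left out. The covariate rests on the third untreated wild-type library, the only one with high Xist outside the DSS group of that label. It also moved the median of the hepatocyte-made factors from -0.13 to 0.19 for the DSS response of that label and from -0.36 to -0.03 for the difference between responses. With libraries left out, that median ran from 0.11 to 0.41 in wild-type liver after DSS, from -0.22 to -0.03 in the other genotype, from -0.04 to 0.17 between untreated genotypes, from -0.32 to -0.13 after DSS and from -0.50 to -0.23 for the difference between responses. The other counts stayed at 0 in all settings run. The direction of some small differences, none of them called in edgeR, turned. With the covariate these were F12 (-0.00, and 0.00 without scaling) in wild-type liver after DSS, F2 (0.15) and F12 (0.19) in the other genotype, F2 (-0.03) and F8 (0.08) between untreated genotypes, F9 (-0.09), F11 (0.42), F12 (0.20) and F3 (0.10) between genotypes after DSS, and F9 (-0.03) and F12 (0.20) for the difference between responses. F3 in the DSS response of liver labelled RelaΔhepStat3Δhep was -0.02 in limma-voom, and F11 between genotypes after DSS was 0.03 without scaling, a setting chosen after seeing the data that moved the median of all genes by 0.142 in that comparison, 0.139 in the difference between responses and -0.11 in the wild-type DSS response. The covariate moved it by 0.104 in the difference between responses. With libraries left out, the ranges that cross 0 were -0.01 to 0.23 (F12, wild-type DSS), -0.13 to 0.19 (F3, DSS in the other genotype), -0.04 to 0.17 (F2), -0.22 to 0.03 (F9) and -0.29 to 0.08 (F8) between untreated genotypes, -0.20 to 0.25 (F9), -0.28 to 0.04 (F11) and -0.45 to 0.25 (F3) between genotypes after DSS, and -0.09 to 0.36 (F9) and -0.14 to 0.24 (F11) for the difference between responses. Of the marker and other coagulation genes called in liver labelled RelaΔhepStat3Δhep, sex-linked ones aside, none passed without the second or without the third untreated library of that label. Over all 12 libraries left out, the highest adjusted p was 0.0612 for Lyz2, 0.0757 for Clec4f, 0.0759 for Csf3r, 0.105 for Cd5l, 0.137 for Cd68, 0.148 for Marco and 0.168 for Vsig4. The cause of these changes was not tested.

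The replicate numbers did not pair the mice, as same-numbered libraries had correlations from -0.0819 to 0.26. With the number as a block the count of factors called stayed at 2 in liver labelled RelaΔhepStat3Δhep and at 0 elsewhere, and the calls over all genes went from 121, 1240, 11, 59 and 72 to 119, 1164, 33, 66 and 128 in the 5 comparisons. DESeq2 called 840, 2315, 334, 584 and 699. F13a1 and F3 rest on few counts (15 to 235 and 89 to 387), which limits what their levels can show.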
